A study of Mus musculus with 11 samples.

Results

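The genes described here are the ligands Igf1 and Igf2, the receptor Igf1r, and the binding protein genes Igfbp2, Igfbp3, Igfbp4, Igfbp5, Igfbp6 and Igfbp7 of the insulin-like growth factor (IGF) system. They were chosen by symbol from the merged count table, in which all 9 had a row among 22600 genes. Messenger RNA from the whole distal tibia of 4 Control and 7 BMAd-DTA mice was sequenced strand-specifically, with 1 library per mouse. The comparison asks how bone transcripts differ when bone marrow adipocytes are killed. Every mouse was 24 weeks old, was fed ad libitum and had the C57BL6/SJL background. Controls have the genotype BMAd-WT in the labels. Both groups carried Osterix-FLPo and the flippase-dependent Adipoq-Cre, since that Cre allele lowers circulating adiponectin by itself. BMAd-DTA mice also carried ROSA-DTA, in which Cre removes a stop cassette and diphtheria toxin A is made. Cre is therefore driven from the Adipoq locus after an Osterix-expressing stage. According to the study this Cre acts mainly in marrow adipocytes and appears to reach few of the marrow adipogenic lineage precursors. The distal tibia was ground whole, so bone, marrow and attached tissue share each library, and a lower or higher level cannot be told apart from fewer or more cells of a type.

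IGF1 and IGF2 are small secreted peptides that act through IGF1R, a receptor tyrosine kinase that signals through insulin receptor substrates, PI3K and AKT. IGF1 reaches bone from the liver and is also made by osteoblasts and marrow stromal cells, and it promotes osteoblast growth and matrix formation. IGF-binding proteins hold most of the peptide, lengthen its life or keep it from the receptor, and are cut by proteases such as pappalysins that release it.

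Library totals were between 16969529 and 18637663 counts. The label of bone was borne out by all 12 osteoblast and osteocyte markers being measured, with a summed level from 3084 to 36315 CPM (counts scaled to a common library size). Skeletal muscle markers summed to between 14.6 and 1239.7 CPM in Controls and between 16.3 and 981 CPM in BMAd-DTA mice, and Myh1 and Mb were at 0 in at least 1 library. Xist had at least 13810 counts in all 11 libraries and 4 Y-linked genes had 0, while the labels give no sex and the legend of the study that covers these data names male mice. Over the 16496 genes that passed a filter on low counts, edgeR's quasi-likelihood test called 13 at a Benjamini-Hochberg adjusted p under 0.05, 12 of them higher in BMAd-DTA mice and 1 lower. With DESeq2 size factors in the same fit, 15 were higher and 5 lower.

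Within the IGF system, Igfbp4, Igfbp5, Igfbp6 and Igfbp7 outweighed Igf1 and Igf1r per length of exon. Igfbp2 and Igfbp3 averaged lower than Igf1 and Igf1r. Igfbp4 had the smallest p-value of the tested IGF system genes. Igfbp4 was 1.44 times as high in BMAd-DTA as in Control mice (95% interval 1.15 to 1.82), but its call depended on the tool. Igf1 and Igf1r differed by less than the spread between mice. In edgeR, after Benjamini-Hochberg adjustment, 0 of the 8 tested genes passed the threshold, against 0.0788% of all tested genes (0.0727% higher and 0.00606% lower). Without adjustment 2 of the 8, Igfbp2 and Igfbp4, had a p under 0.05, against 16.4% of all. DESeq2, the study's tool, called 1 of the 8, Igfbp4, higher, against 5.42% of the genes to which it gave an adjusted p (2.78% higher and 2.64% lower). Limma-voom called 0. The groups were without overlap for 0 of the 9 genes, against 2.81% of all tested genes (1.78% higher and 1.04% lower). The fitted log2 fold change was above 0 for 5 genes and below 0 for 3, where 50.4% of all tested genes were above 0, with a median of 0.21 against 0.0018 over all tested genes. Igf2 did not pass the filter. Igfbp2 passed it through 5 BMAd-DTA libraries, the group in which it was higher, and 1 Control library with enough counts. The counts and the median of the 8 tested genes include Igfbp2, so they are given as a description.

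**Figure D1:**
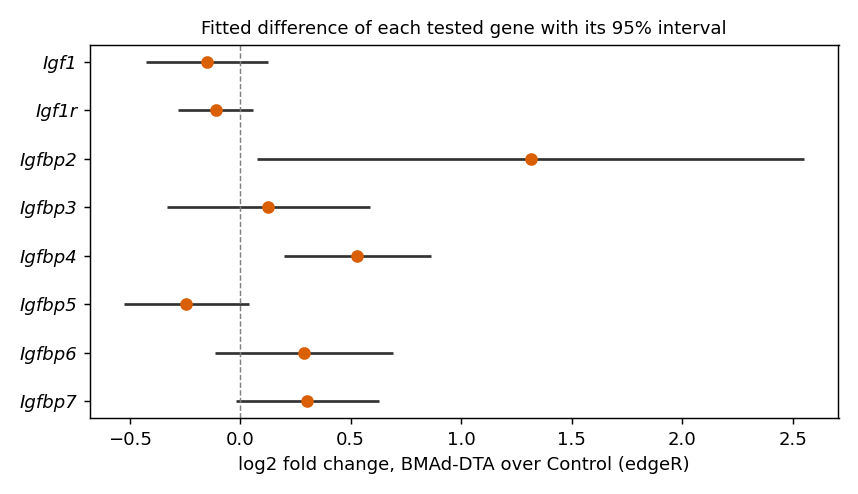
Fitted log2 fold change (BMAd-DTA over Control, horizontal axis) of the 8 tested genes from edgeR, with points for the estimate and lines for the 95% interval. The intervals of Igfbp2 and Igfbp4 lie above 0 and those of the other 6 genes span it. Igfbp2 passed the filter on low counts through 5 BMAd-DTA libraries and 1 Control library.

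Levels of different genes were compared as CPM per kilobase of exon, since longer transcripts collect more read pairs. The length was that of the merged exons of all annotated transcripts of a gene, not of the transcripts made in bone. Close steps in the order, and shares of the binding protein sum, depend on this choice. Igfbp5, Igfbp4 and Igfbp7 had the highest levels, in an order that differed between the group means. In Controls the means were 324 CPM per kb for Igfbp5, 209 for Igfbp7 and 191 for Igfbp4. In BMAd-DTA mice they were 276 CPM per kb for Igfbp4, 274 for Igfbp5 and 258 for Igfbp7. Igfbp5 exceeded Igfbp4 in 7 of 11 libraries, with ranges that did not overlap in Controls and did in BMAd-DTA mice. Igfbp4 exceeded Igfbp7 in 6 of 11 libraries, and their ranges overlapped in both groups. A clear step followed, since the level of Igfbp7 was 10.2 times that of Igfbp6, over all mice, and higher in 11 of 11 libraries. Igfbp6 averaged 23.5 CPM per kb, Igf1 8.40, Igf1r 6.33 and Igfbp3 4.77. Igfbp6 was above Igf1 in 11 of 11 libraries, whereas Igf1 and Igf1r overlapped in BMAd-DTA mice, and Igf1r and Igfbp3 overlapped in both groups. Igfbp2 was the lowest of the ranked genes, at 0.570 CPM per kb, below Igfbp3 in 11 of 11 libraries. Igf2 was left out of this order for a reason given with its values.

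**Figure D2:**
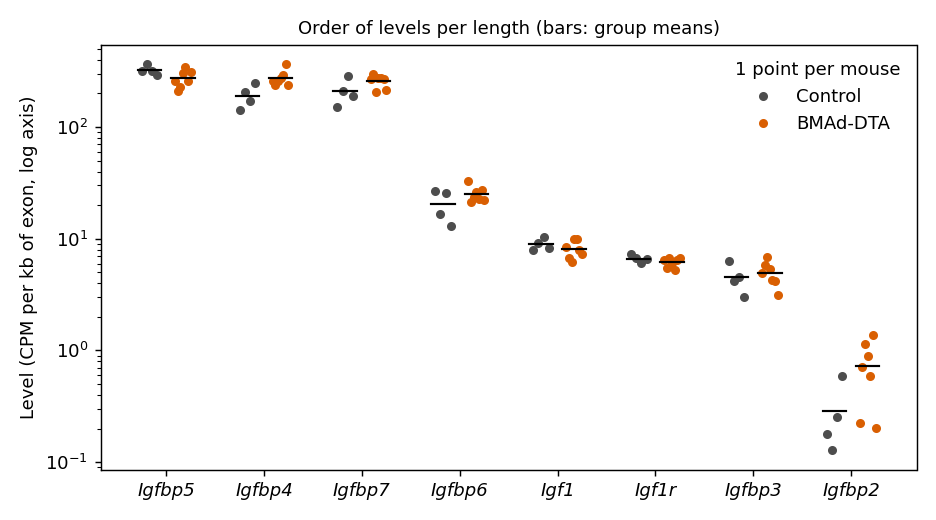
Level in CPM per kb of exon (vertical log axis) of the 8 ranked genes, with 1 point per mouse and bars for the group means. Igfbp5, Igfbp4 and Igfbp7 sit together at the top, Igfbp6 about 10.2 times lower than Igfbp7, and Igfbp2 lies lowest.

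Igf1, at chr10:87858265-87937042 on the plus strand of GRCm38, encodes the main postnatal ligand. Its levels in Controls were 79.0, 91.5, 102 and 82.3 CPM. In BMAd-DTA mice they ran from 61.0 through a median of 79.0 to 98.1 CPM. The groups overlapped, although 4 BMAd-DTA mice lay below every Control. The highest of the 4, BMAd-DTA replicate 6, was all but level with Control replicate 1, at 79.011 against 79.03 CPM. The means were 88.8 ± 10.4 (SD, n = 4) and 79.9 ± 14.3 CPM (SD, n = 7). This gave a log2 fold change of -0.15 (SE 0.13, 95% interval -0.43 to 0.13, edgeR adjusted p = 0.611). The interval allows Igf1 to be between 0.744 and 1.09 times the Control level.

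Igf2, the ligand that dominates before birth, lies at chr7:142650766-142666816 on the minus strand. It was read 76 times in all 11 libraries together, with 4, 9, 3 and 4 counts in Controls and 5 to 12 counts in BMAd-DTA mice. In CPM the Controls were at 0.220, 0.530, 0.177 and 0.207, and BMAd-DTA mice ran from 0.273 through a median of 0.412 to 0.639. Control replicate 2 stood among the BMAd-DTA mice and apart from the other Controls. The means were 0.284 ± 0.165 (SD, n = 4) and 0.452 ± 0.129 CPM (SD, n = 7), and an exact two-sided permutation test on log2(CPM + 1) gave p = 0.0848, where the smallest possible p is 0.00303. Of the 5723 exon bases of Igf2 in GENCODE M21, 62.8% also belong to Gm49394, a read-through gene on the same strand. The counting by STAR gives a pair that fits both genes to neither, so the counts of Igf2 rest on the remaining 2127 bases and read its level too low if that annotation was used. Gm49394 itself had 0 to 3 counts. None of the other 8 genes shares exon bases on its own strand.

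Igf1r, the signalling receptor of both ligands, is at chr7:67952827-68233668 on the plus strand. Controls had 122, 112, 102 and 110.3 CPM. The BMAd-DTA values spanned 88.1 to 113 CPM around a median of 108. Most BMAd-DTA mice lay within the Control range and 3 lay below it. The means were 112 ± 8.16 (SD, n = 4) and 103 ± 9.83 CPM (SD, n = 7). The log2 fold change of -0.11 (SE 0.079, 95% interval -0.28 to 0.061) did not pass the test (edgeR adjusted p = 0.529). Igf1r also varied least between mice, with a coefficient of variation of 7.32% in Controls and 9.51% in BMAd-DTA mice.

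**Figure D3:**
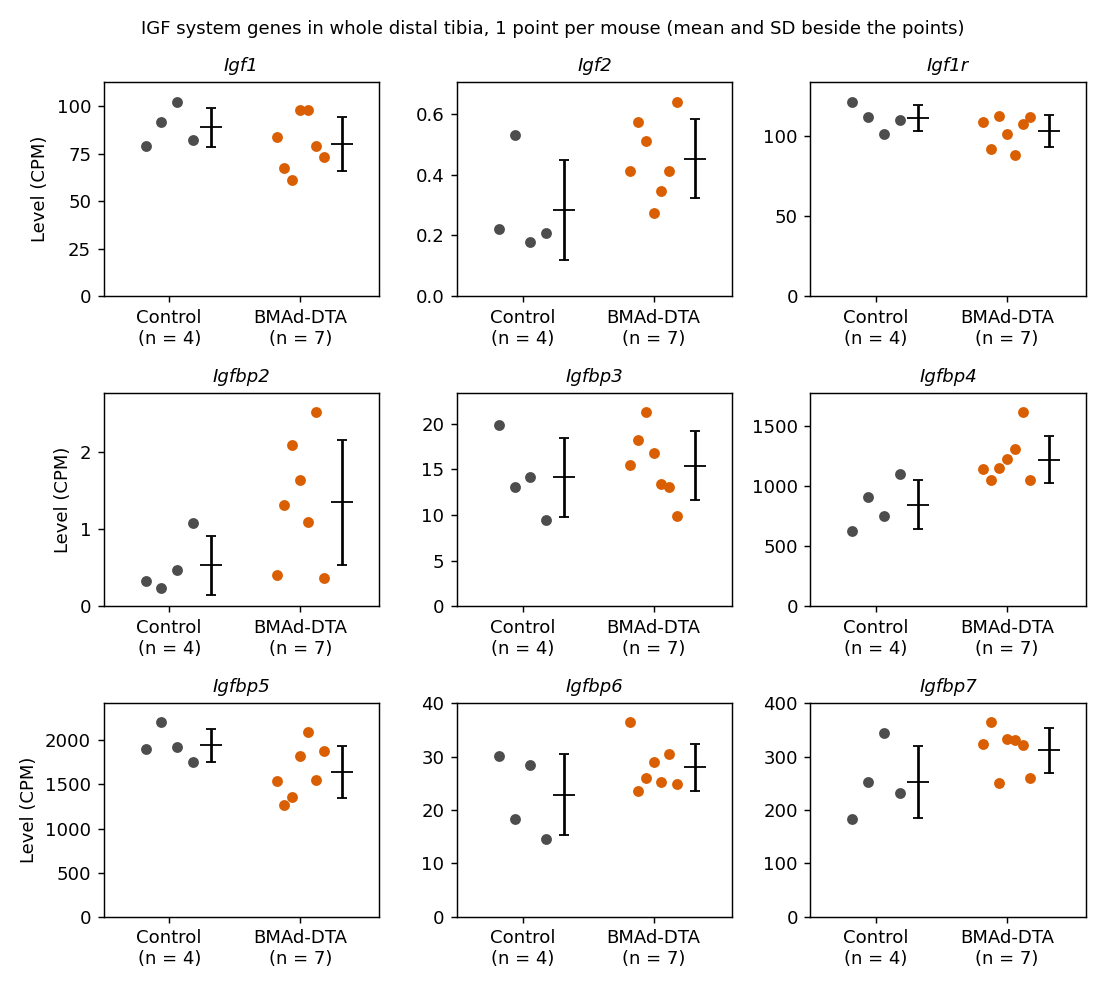
Level in CPM (vertical axes, each starting at 0) of the 9 genes in 4 Control and 7 BMAd-DTA mice, with 1 point per mouse, and the mean and SD beside the points. Igfbp4 has 5 BMAd-DTA points higher than each Control point, while for Igfbp5 4 lie below the Control points.

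Igfbp4, Igfbp5 and Igfbp7 together made up between 94.8% and 97.8% of the per-length level of the 6 binding protein genes in every library, so their promoters are shown. They are RefSeq windows on GRCm38.p6 from 250 bases before to 50 bases after the annotated start, written 5′ to 3′ on the strand of the gene. Capitals mark a TATA box (TATAAA) or a GC box (GGGCGG), searched on both strands.
Igfbp4 (chr11:99040994-99041293, plus strand): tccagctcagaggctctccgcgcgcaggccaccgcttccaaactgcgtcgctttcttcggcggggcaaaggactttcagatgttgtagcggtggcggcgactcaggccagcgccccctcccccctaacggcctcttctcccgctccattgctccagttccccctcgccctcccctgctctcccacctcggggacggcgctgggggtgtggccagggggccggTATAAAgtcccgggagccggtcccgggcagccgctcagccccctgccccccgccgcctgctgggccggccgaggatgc
Igfbp5 (chr1:72874816-72875115, minus strand): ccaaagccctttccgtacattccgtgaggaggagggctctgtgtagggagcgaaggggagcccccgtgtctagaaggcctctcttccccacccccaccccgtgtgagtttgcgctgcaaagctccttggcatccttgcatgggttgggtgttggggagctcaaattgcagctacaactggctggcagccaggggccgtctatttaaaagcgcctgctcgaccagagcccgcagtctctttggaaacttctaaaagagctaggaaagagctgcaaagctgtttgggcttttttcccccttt
Igfbp7 (chr5:77407996-77408295, minus strand): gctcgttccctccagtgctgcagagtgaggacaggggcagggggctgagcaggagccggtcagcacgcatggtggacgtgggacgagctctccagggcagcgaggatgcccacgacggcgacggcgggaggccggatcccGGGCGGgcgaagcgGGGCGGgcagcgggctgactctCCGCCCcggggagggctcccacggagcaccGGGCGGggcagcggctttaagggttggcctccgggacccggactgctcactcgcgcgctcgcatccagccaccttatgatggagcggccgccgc
The Igfbp4 window holds TATAAA at position -28 from its start, a motif that 13.6% of the 32851 RefSeq mouse promoter windows hold. The Igfbp7 window holds 4 GC boxes, a motif found at least once in 35.7% of windows. In the Igfbp5 window neither motif was found. CCAAT, which 37.4% of windows hold, was found in none of the windows of Igfbp4, Igfbp5 and Igfbp7. The GC content was 71.3% for Igfbp4, 56.3% for Igfbp5 and 73.3% for Igfbp7, with a median of 52.7% over all windows.

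Igfbp4, whose product holds IGF away from its receptor until a pappalysin cuts it, lies at chr11:99041244-99054392 on the plus strand. Controls had 624, 907, 748 and 1096 CPM. BMAd-DTA mice ran from 1048 through a median of 1152 to 1615 CPM. All BMAd-DTA mice were above the Control median and 5 were above every Control, while Control replicate 4 overlapped the lowest BMAd-DTA mice. The means were 844 ± 204 (SD, n = 4) and 1219 ± 196 CPM (SD, n = 7). The log2 fold change was 0.53 (SE 0.15, 95% interval 0.20 to 0.86), with an unadjusted p of 0.00427 and an adjusted p of 0.117 in edgeR. In DESeq2 the log2 fold change was 0.53 (SE 0.15) with an adjusted p of 0.0146. An exact two-sided permutation test of this single gene gave p = 0.00909. That p was not adjusted over the IGF system genes, and the same test of the others gave 0.0818 (Igfbp2) to 0.573 (Igfbp3). The DESeq2 call was lost without Control replicate 1, the Control with the lowest Igfbp4 (log2 fold change 0.41, adjusted p = 0.153), and was kept without any other single library.

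The levels of cell type markers were read beside Igfbp4, where 50.4% of all tested genes had a fitted log2 fold change above 0 and 0.0788% were called by edgeR. The 12 osteoblast and osteocyte markers all had a fitted log2 fold change above 0, and 1 was called. Their summed level was 3084 to 13112 CPM in Controls and 15549 to 36315 CPM in BMAd-DTA mice, without overlap, and Control replicate 1 was lowest. The 10 adipocyte markers were all lower in the fit, with 1 called, and summed to between 884 and 1690.1 CPM in Controls and between 401 and 1095.7 CPM in BMAd-DTA mice. The 7 tested chondrocyte markers were higher in the fit, none called, with sums of 452 to 726 CPM and 784 to 971 CPM, and Matn3 was at 0 in at least 1 library. The 6 osteoclast markers were also higher in the fit, none called, from 1331 to 2871 CPM in Controls and from 1804 to 4643 CPM in BMAd-DTA mice. All 7 B lymphocyte markers were higher in the fit and none was called, with sums of 398 to 906 CPM and 678 to 1571.5 CPM. Of 6 tested erythroid markers 0 were higher in the fit and none was called, with sums of 12731 to 28879 CPM and 16943 to 30261 CPM. Of 10 skeletal muscle markers 0 were higher in the fit and none was called, with a median log2 fold change of -0.80. Of 6 endothelial markers 0 were higher and none was called. The 2 tested keratinocyte markers were higher, with 0 called. The lists that follow were mixed, with 0 called. Of 6 marrow stroma markers 3 were higher in the fit. The 6 summed to between 3176 CPM (Control replicate 1) and 4847 CPM in Controls, and to between 3137 and 5137 CPM in BMAd-DTA mice. In the fit 3 of 7 macrophage, 4 of 8 neutrophil, 3 of 6 pericyte and smooth muscle, and 5 of 6 tendon and ligament markers were higher. The part of these cell types in the levels of Igfbp4 and the other IGF system genes was not tested. With a score of the skeletal muscle markers in the fit, the log2 fold change of Igfbp4 was 0.52 (edgeR adjusted p = 0.186).

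Igfbp5 encodes a binding protein that bone cells deposit in their matrix, and it is at chr1:72857932-72874884 on the minus strand. Controls had 1899, 2206, 1925 and 1758 CPM. The BMAd-DTA values spanned 1266 to 2093 CPM around a median of 1556. The BMAd-DTA mice spread more widely, and 4 of them lay below every Control. The means were 1947 ± 188 (SD, n = 4) and 1645.5 ± 297 CPM (SD, n = 7). The log2 fold change of -0.24 (SE 0.13, 95% interval -0.53 to 0.040) did not pass the test (edgeR adjusted p = 0.378, DESeq2 adjusted p = 0.299).

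The estimates of Igfbp4 and Igfbp5 thus had opposite signs, and their balance within each library was followed after their values had been seen, with no test. The ratio of Igfbp4 counts to Igfbp5 counts was 0.329, 0.411, 0.389 and 0.624 in Controls. In BMAd-DTA mice it was 0.742, 0.828, 0.845, 0.671, 0.623, 1.04 and 0.559. Control replicate 4 lay among the BMAd-DTA mice, above replicates 5 and 7, and the other Controls lay below all of them. The mean ratio was 0.438 ± 0.129 (SD, n = 4) in Controls and 0.758 ± 0.161 (SD, n = 7) in BMAd-DTA mice. Per length, Igfbp5 made up 43.5% ± 4.85 of the binding protein sum in Controls and 32.6% ± 4.53 in BMAd-DTA mice. Igfbp4 made up 25.4% ± 5.49 and 32.9% ± 3.53. Igfbp7 made up 27.6% ± 5.25 and 30.8% ± 3.94.

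Igfbp7 encodes a secreted protein of the vessel wall and matrix that binds IGF weakly, and it is at chr5:77349240-77408041 on the minus strand. Controls had 183, 253, 344 and 231 CPM. BMAd-DTA mice ran from 249.8 through a median of 323 to 364 CPM. All BMAd-DTA mice were above the Control median, but Control replicate 3 was above all of them except 1. The means were 253 ± 67.4 (SD, n = 4) and 312 ± 41.9 CPM (SD, n = 7). The log2 fold change was 0.30 (SE 0.15, 95% interval -0.020 to 0.63, edgeR adjusted p = 0.332). Endothelial markers, a cell type that makes this protein, summed to between 595 and 628 CPM in Controls and between 464 and 660.02 CPM in BMAd-DTA mice, and 0 of 6 were higher in the fit. Their part in the level of Igfbp7 was not tested.

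Igfbp2, a binding protein of the fetus and of the blood, is at chr1:72824503-72852474 on the plus strand, tail to tail with Igfbp5 and 5457 bases from it. It was near the detection limit, with 6, 4, 8 and 21 counts in Controls and 7 to 43 counts in BMAd-DTA mice. Controls had 0.331, 0.236, 0.473 and 1.09 CPM. In BMAd-DTA mice the lowest value was 0.373, the median 1.32 and the highest 2.52 CPM. Although 5 BMAd-DTA mice exceeded each Control, BMAd-DTA replicates 1 and 7 lay within the Control range. BMAd-DTA replicate 5 was all but level with Control replicate 4, at 1.0904 against 1.0889 CPM and with 19 against 21 counts. The means were 0.532 ± 0.384 (SD, n = 4) and 1.35 ± 0.809 CPM (SD, n = 7), and the coefficient of variation was 72.2% and 59.9%, the widest of the tested genes. The log2 fold change was 1.32 with a wide interval of 0.078 to 2.55 (SE 0.57, edgeR unadjusted p = 0.0389, adjusted p = 0.271, DESeq2 adjusted p = 0.154). Igfbp2 passed the filter, which asked for 4 libraries with enough counts, through 5 BMAd-DTA libraries and 1 Control library. Its test is therefore given as a description.

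Igfbp3 and Igfbp6 did not pass the test. Igfbp3, which encodes the main carrier of IGF in blood, is at chr11:7206086-7213923 on the minus strand. Controls had 19.8, 13.0, 14.1 and 9.49 CPM. BMAd-DTA mice ran from 9.86 through a median of 15.4 to 21.3 CPM, over nearly the same range. The means were 14.1 ± 4.30 (SD, n = 4) and 15.4 ± 3.75 CPM (SD, n = 7), with a log2 fold change of 0.13 (SE 0.21, 95% interval -0.33 to 0.59, edgeR adjusted p = 0.82). Igfbp6, whose product prefers IGF2, is at chr15:102144362-102149511 on the plus strand. Controls had 30.0, 18.4, 28.5 and 14.6 CPM, a pair of high and a pair of low mice. BMAd-DTA mice ran from 23.6 through a median of 26.0 to 36.4 CPM. All BMAd-DTA mice lay above the low pair, and 2 exceeded every Control. The means were 22.9 ± 7.57 (SD, n = 4) and 27.9 ± 4.43 CPM (SD, n = 7), with a log2 fold change of 0.29 (SE 0.19, 95% interval -0.11 to 0.69, edgeR adjusted p = 0.471).

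How the genes varied among mice of the same group was described by Pearson's r of their log2 CPM over the 11 libraries, after each group mean was taken out. The points share their libraries and no p was computed. The genes named as most like each gene were picked for the highest r among 16496 tested genes over 11 libraries. A high r therefore follows in part from this choice, and the cell of origin was not tested. Among the 28 pairs of tested IGF system genes, Igf1 and Igfbp5 had the highest r (0.71, Spearman's rho 0.64), and Igf1r and Igfbp7 the lowest (r = -0.75, rho = -0.84). Of all tested genes, Lepr, the leptin receptor that marks marrow stromal cells, was most like Igf1 (r = 0.957, rho = 0.955, and r = 0.942 without the 2 libraries farthest out). Lepr itself was 209.9 to 341 CPM in Controls and 136 to 249 CPM in BMAd-DTA mice, with a log2 fold change of -0.48 (edgeR adjusted p = 0.182). Of the 6 marrow stroma markers, Lepr among them, 3 were higher in the fit, with a median log2 fold change of -0.076. Gm44710 (r = 0.927) was also among the genes most like Igf1. The gene most like Igfbp4 was Islr, a marker of mesenchymal stroma (r = 0.92, rho = 0.891), followed by Serpina12 (r = 0.918) and D130017N08Rik (r = 0.903). For Igfbp7 they were Siglec1 (r = 0.940), a macrophage receptor, Ninj1 (r = 0.937) and Fbln5 (r = 0.933), which encodes an elastic fibre protein. For Igfbp3 the first was Angpt2 (r = 0.951), an endothelial angiopoietin, then Camkk1 (r = 0.906) and Gtf2ird2 (r = 0.897). Igfbp5 was most like Gm12396 (r = 0.909) and Nags (r = 0.906), which averaged only 0.81 and 0.45 CPM. Igfbp6 was most like Kcnq1 (r = 0.924), Ehd1 (r = 0.914) and Mrpl38 (r = 0.882). Igf1r was most like Ganc (r = 0.937), Gm10282 (r = 0.933) and Cgas (r = 0.931), and Mrpl44 (r = 0.955) and Gm42067 (r = 0.925) were among the genes most like Igfbp2.

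**Figure D4:**
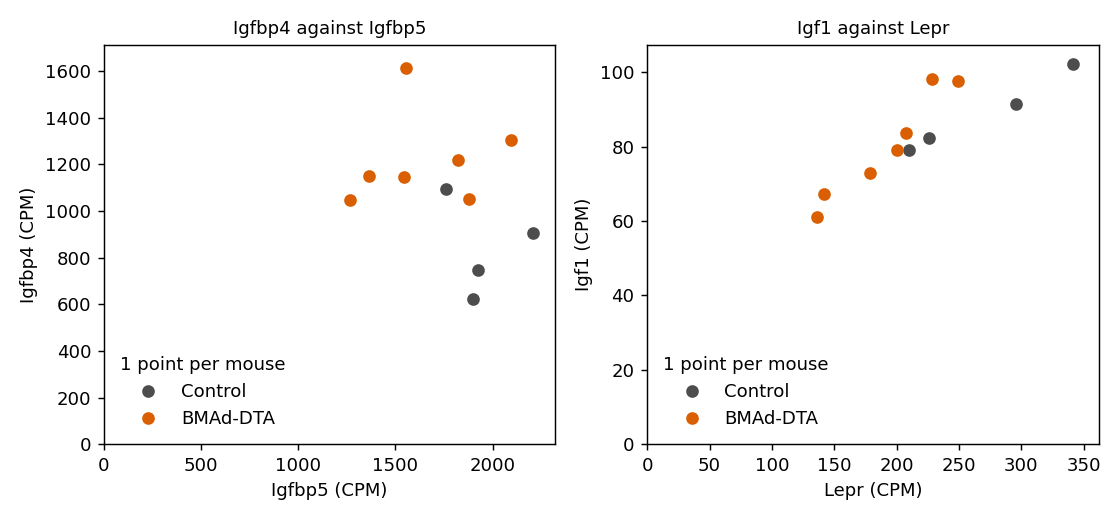
Left, Igfbp4 against Igfbp5, and right, Igf1 against Lepr, all in CPM, with 1 point per mouse and axes from 0. Lepr was picked for the highest r with Igf1 among all tested genes. On the left 3 Controls have less Igfbp4 for their Igfbp5 than any BMAd-DTA mouse, and on the right Igf1 follows Lepr in both groups (r = 0.957 after the group means were taken out).

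The rest of the pathway was read from a list of 49 genes, of which 43 were tested. By edgeR 0 were called, and 2 were higher and 10 lower at an unadjusted p under 0.05, against 7.89% and 8.53% of all tested genes. DESeq2 called 1, lower, where it called 2.64% of all genes lower. In the fit 15 were higher and 28 lower, with a median log2 fold change of -0.078.

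Beside the ligands, Igfals, which encodes the subunit that stabilises IGF and IGFBP3 in blood, was 4.12 ± 1.12 CPM (SD, n = 4) in Controls and 2.12 ± 0.965 CPM (SD, n = 7) in BMAd-DTA mice, and 5 BMAd-DTA mice lay below every Control. Its log2 fold change of -0.95 (SE 0.31) had an adjusted p of 0.149 in edgeR and 0.0461 in DESeq2, and was the 1 call of that tool in the list. Igfbp1 and Ins2 had 0 counts in every library. Of 4 other receptors, 2 were higher and 2 lower in the fit, none called. Igf2r, which clears IGF2, had the highest log2 fold change (0.21, edgeR adjusted p = 0.361), and Insrr the lowest (-0.63, adjusted p = 0.447).

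Of the 7 proteases of binding proteins and their inhibitors, 5 were higher and 2 lower in the fit. Pappa2, a pappalysin, was 4.52 ± 1.56 CPM (SD, n = 4) in Controls and 6.97 ± 1.79 CPM (SD, n = 7) in BMAd-DTA mice, with a log2 fold change of 0.63 (edgeR adjusted p = 0.224). Pappa, the other pappalysin of this list, averaged 34.7 CPM in Controls and 36.3 CPM in BMAd-DTA mice. Its log2 fold change was 0.066 (SE 0.20, edgeR adjusted p = 0.91). Adam28 was lowest at -0.68 with a wide error (SE 0.80, adjusted p = 0.733).

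In the growth hormone axis, which drives Igf1 transcription, 4 of 6 genes were lower at an unadjusted p under 0.05, against 8.53% of all tested genes, and 0 passed adjustment in edgeR or in DESeq2. The 4 were Ghr, the growth hormone receptor, its kinase Jak2, and the transcription factors Stat5a and Stat5b. Ghr was 99.1 ± 43.1 CPM (SD, n = 4) in Controls and 63.9 ± 15.5 CPM (SD, n = 7) in BMAd-DTA mice, with a log2 fold change of -0.63 (SE 0.24, edgeR adjusted p = 0.202). Socs2, a target and inhibitor of the same signal, was 20.7 to 42.1 CPM in Controls and 26.0 to 45.4 CPM in BMAd-DTA mice, with the highest log2 fold change of this group of genes (0.27, edgeR adjusted p = 0.560). Alongside these genes, the summed adipocyte markers had a median of 1304.5 CPM in Controls and 739 CPM in BMAd-DTA mice, and their part was not tested.

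Downstream of the receptor, 4 of 8 adaptors were higher in the fit. Grb10, an adaptor that damps the receptor, was highest (log2 fold change 0.33, edgeR adjusted p = 0.177), and Irs2 lowest (-0.11, adjusted p = 0.680). Of 16 kinases, phosphatases and effectors, 14 were lower in the fit, where 50.4% of all tested genes were above 0, and 4 of them had an unadjusted p under 0.05, against 8.53% of all. Their log2 fold changes were small, from -0.26 for Foxo3 (edgeR adjusted p = 0.235) to 0.15 for Foxo1 (adjusted p = 0.626), both transcription factors that AKT restrains. Igf2bp2, an RNA-binding protein that was named for binding Igf2 mRNA, had a log2 fold change of -0.53 (edgeR adjusted p = 0.237).

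**Figure D5:**
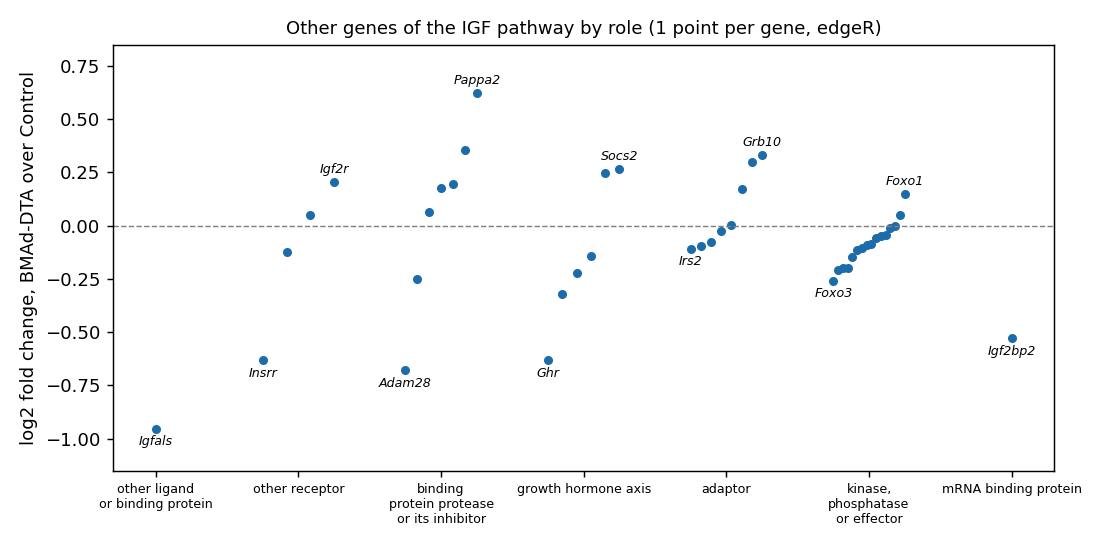
Fitted log2 fold change (BMAd-DTA over Control, vertical axis) of the 43 tested other genes of the IGF pathway, with 1 point per gene, grouped by role, and names at the extremes of each role. Igfals lies lowest at -0.95 and Pappa2 highest at 0.63, and 14 of 16 kinases, phosphatases and effectors lie below 0.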

How the data were processed

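Strand-specific mRNA libraries from the distal tibia of 4 Control and 7 BMAd-DTA mice were analysed, grouped by the labels. The authors aligned read pairs to mm10 with STAR, after checks with FastQC 0.11.9, and deposited raw read counts per gene, per library and merged, without normalization. They used DESeq2 with genotype as the effect. The annotation release is not given in the sources used here, and 99.9% of gene identifiers matched GENCODE M21. The merged table equals the read-strand counts (95.9% to 96.3% of stranded counts). Pairs that are unmapped, multimapping, on no gene or on more than one gene are outside library sizes and tests.

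The test was edgeR 4.0.16 in R 4.3.3 (defaults of filterByExpr, TMM, glmQLFit and glmQLFTest, genotype only, two-sided, Benjamini-Hochberg over 16496 genes, threshold 0.05). The edgeR and DESeq2 fits were first tried on simulated counts. The standard error is the log2 fold change over the square root of F. CPM use TMM-scaled library sizes. Single genes were also tested by exact permutation over 330 splits. The p-values set the difference between the groups against the spread between mice. Library totals were 16969529 to 18637663 counts, and genes with few counts carry counting error as well. The alternatives were DESeq2 1.42.0, limma-voom 3.58.1 with and without sample weights, a robust fit, other scalings, filters and count columns, a muscle covariate, removal of globin and mitochondrial genes, pseudocounts, and each mouse left out. DESeq2 with each mouse left out was added after the data were seen.

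The genes and lists were chosen with earlier results of these data known. All 9 IGF system genes are named. Of the pathway list, those named passed a threshold, were extreme for their role, or were singled out after their values were seen. Singled out in this way were Jak2, Stat5a, Stat5b, Pappa, Igfbp1 and Ins2. The genes named as most like each tested gene are from its first 3, of which some are not reported here.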

Additional observations from a re-analysis of the deposited data

Results flagged for a closer look

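In each group the highest and lowest library was compared with the others by Dixon's test for the 9 genes, which gives 18 groups, and chance flags about 1 in 20 groups. Only Igf2 in Controls passed. Control replicate 2 had 0.53 CPM, or 9 counts, where the nearest other Control had 0.220 CPM. The gap was 0.878 of the range of the group, above Dixon's critical value for a group of 4. These values are counts of 3 to 9, so counting error is large beside the gap.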

How the results depend on the processing

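The number of IGF system genes called higher was 0 in edgeR and rose to 1 (Igfbp4) under DESeq2. It was 0 under the other 23 of 24 alternatives, and 0 were called lower under all 24. The count over all genes, 13 in edgeR, was 845 with DESeq2, 20 with limma-voom, 238 with sample quality weights, 32 with the robust fit, 20 with DESeq2 size factors and 3 with the muscle score. It was between 0 and 292 with 1 mouse left out: 0 without Control 1, Control 2, BMAd-DTA 1 or BMAd-DTA 6 (replicate numbers), 3 without BMAd-DTA replicate 4, 8 without BMAd-DTA replicate 3, 89 without Control replicate 4 and 292 without Control replicate 3. The cause was not tested. Igfbp4 had an adjusted p between 0.0146 and 0.374 over its alternatives, and in DESeq2 with 1 mouse left out between 0.000313 and 0.153, the log2 fold change running from 0.41 to 0.68. Without Control replicate 4 DESeq2 also called Igfbp2, and without Control replicate 3 Igfbp7. Igfbp3 ran from -0.024 (reversed, without Control replicate 4) to 0.34 (without Control replicate 1) as a log2 fold change in edgeR, and from -0.033 (reversed, without Control replicate 4, exact permutation p = 0.883) to 0.30 as a difference of mean log2(CPM + 1). The exact permutation p fell under 0.05 for Igf2 without Control replicate 2 (0.0167) or BMAd-DTA replicate 4 (0.0476), for Igfbp2 without BMAd-DTA replicate 1 or 7 (0.0429 each), for Igfbp5 without BMAd-DTA replicate 5 (0.0476) and for Igfbp7 without Control replicate 3 (0.0167). No paired analysis was possible because the labels give no numbers that link mice of both groups. Depth limits Igf2, with 3 to 12 counts, and Igfbp2, with 4 to 43 counts.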

Other observations

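Igf2 is imprinted, and a list of 10 imprinted growth genes was read beside it, with 9 tested. In the fit 6 were higher and 3 lower, and the median log2 fold change was 0.20. Plagl1, a zinc finger factor of the imprinted gene network, was the 1 call of edgeR, higher, against 0.0727% of all tested genes called higher. It was also the 1 call of DESeq2, higher, against 2.78%. In edgeR it is lost, with 0 genes called in all, without Control 1, Control 2, BMAd-DTA 1 or BMAd-DTA 6 (replicate numbers). It was 38.6 ± 3.33 CPM (SD, n = 4) in Controls and 58.7 ± 6.44 CPM (SD, n = 7) in BMAd-DTA mice (log2 fold change 0.60, SE 0.093, edgeR adjusted p = 0.0343). For Plagl1 7 of 7 BMAd-DTA mice exceeded the highest Control, as they did for 1.78% of all tested genes. Plagl1 was known as a call from the earlier results. H19, the noncoding neighbour of Igf2, was 7.53 ± 2.21 and 6.93 ± 2.39 CPM (log2 fold change -0.12, edgeR adjusted p = 0.877). Peg3 had the lowest log2 fold change (-0.54, edgeR adjusted p = 0.162).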
